A study of Mus musculus with 8 samples.

Results

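Heat shock chaperones are proteins that help other proteins to fold, keep them from clumping and refold them after stress. The 10 genes described here are Hspa1a, Hspa1b, Hspa8, Hsp90aa1, Hsp90ab1, Dnajb1, Hspb1, Hsph1, Hspd1 and Hspe1. They were taken by gene symbol from the deposited expression table, in which all 10 were found among 18561 genes, and all 10 had enough counts to be tested in both comparisons below. They were measured in 8 libraries of enteric neural crest cells, which migrate along the developing gut and give rise to its neurons and glia. The cells were sorted with antibodies to CD271 and CD57 after enzymatic dissociation of the gastrointestinal tract of embryonic day 14.5 mice, about 200 cells to a tube. Of the libraries, 5 carried the genotype label Emb knockdown and 3 the label WT. Age, tissue, sort and library preparation were the same for both groups, and the labels gave no strain, no sex and no account of how the knockdown was made. The comparison asks how the transcriptome of these cells differs between Emb knockdown and WT embryos.

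In textbook accounts, the cytosol holds constitutive and inducible forms of the chaperones HSP70 and HSP90. J-domain proteins hand clients to HSP70, nucleotide exchange factors release them, and small heat shock proteins hold unfolded chains without using ATP. In mitochondria a barrel-shaped complex of HSP60, closed by a lid of HSP10, encloses a protein while it folds. Heat, proteotoxic stress and the handling of tissue raise transcription of the inducible genes through heat shock factor HSF1, which binds repeated heat shock elements in their promoters.

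The libraries held 20116600 to 26959200 counts with 15079 to 17049 genes detected, and 3 counts corresponded to 0.0966 to 0.155 CPM. CPM are counts per 1000000 of the library size scaled by trimmed mean of M values (TMM) over all 8 libraries. Emb, which encodes the cell surface glycoprotein embigin, was not lower in the libraries labelled knockdown. Its CPM were 353, 349, 37.2, 21.4 and 21.7 in libraries labelled knockdown 1 to 5, against 16.9, 17.7 and 15.9 in WT 1 to 3. Its TPM (transcripts per 1000000, without TMM scaling) were 19.8, 10.3 and 12.0 in knockdown 3 to 5, against 10.4, 12.7 and 10.8 in WT, with overlap. Emb did not pass in edgeR with 8 libraries (adjusted p = 0.217) or without knockdown 1 and 2 (adjusted p = 0.0972). DESeq2 called it higher with 8 (adjusted p = 0.0181). Because the targeted gene was not seen to be lower, each direction below compares groups by label, not by a knockdown seen in the data. Knockdown 1 and 2 stood apart: 16 leukocyte and macrophage markers took 1.72% to 2.06% of their counts, against 0.160% to 0.260% in those labelled knockdown 3 to 5 and 0.0480% to 0.0651% in WT. In the same order, 12 enteric neural crest markers took 0.0134% to 0.0163%, 0.126% to 0.147% and 0.353% to 0.361%, and Sox10, Foxd3 and Tlx2 had no count in at least 1 of the first 2 libraries. In that order again, 8 gut mesenchyme markers took 0.00460% to 0.0379%, 0.515% to 0.596% and 0.276% to 0.420%, and 8 endothelial markers 0.00519% to 0.00535%, 0.0109% to 0.0191% and 0.0475% to 0.0656%. With the first 2 libraries left out, 14 of 16 leukocyte and 5 of 8 mesenchyme markers rose, while 8 of 12 neural crest progenitor, 6 of 12 neuronal, 4 of 8 glial, 7 of 8 endothelial and 3 of 8 erythroid markers fell and 0 of 8 epithelial ones passed (edgeR). Results are therefore given for all 8 libraries and for the 6 without knockdown 1 and 2. The part of these cell type differences in any chaperone result was not tested. In bulk samples, fewer cells of a type and less RNA per cell cannot be told apart. The labels do not tie libraries to animals or litters, so the p-values speak only for the spread among these tubes, and that spread may be technical.

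With 8 libraries, none of the 10 chaperones passed the threshold, an adjusted p under 0.05 over all genes in edgeR's quasi-likelihood test. The background was 0% of 15411 genes called, while 18.6% had an unadjusted p under 0.05 (12.7% higher and 5.9% lower), as did 2 of the 10, Hspa1a and Hspe1, both higher. DESeq2 called 1 of the 10, Hspa1a, against 13.5% of all genes (9.81% higher and 3.69% lower). limma voom with quality weights called 4, of which Hspa1a, Hspe1 and Hsp90aa1 were higher and Hspa8 lower, against 24% of all genes (12.5% higher and 11.5% lower). The CPM values of the groups did not overlap for Hspa1a and Hspe1, both higher in the libraries labelled knockdown, and for Hsph1, which was lower. Over all genes 10.8% were apart and higher and 11.9% apart and lower. The other 7 chaperones overlapped. With 6 libraries, 4 of the 10 rose in the libraries labelled knockdown 3 to 5, namely Hspb1, Hspe1, Hsp90aa1 and Hspa1a, and 0 fell. With 1 of the 6 libraries left out, 1 to 6 of the 10 passed in edgeR. The background moved too, from 180 of 15454 genes without knockdown 4, where 1 of the 10 passed, to 5982 of 15394 without knockdown 3, where 6 passed. DESeq2 and limma voom each called 6 of the 10, of which 5 were higher and 1 lower, against 28.8% of all genes in DESeq2 (15.5% higher and 13.3% lower) and 45.7% in limma voom (23.4% higher and 22.2% lower). Over all genes 20.4% were called, 11.1% higher and 9.37% lower. An unadjusted p under 0.05 was found for 6 of the 10, of which 5 were higher and Hspa8 was lower, and for 37.5% of all genes (19.8% higher and 17.7% lower). The median log2 fold change of the 10 was 0.61, beside 0.02 over all genes tested. Values were apart and higher for 5 chaperones and apart and lower for 2, beside 20.4% and 23% of all genes.

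**Figure D1:**
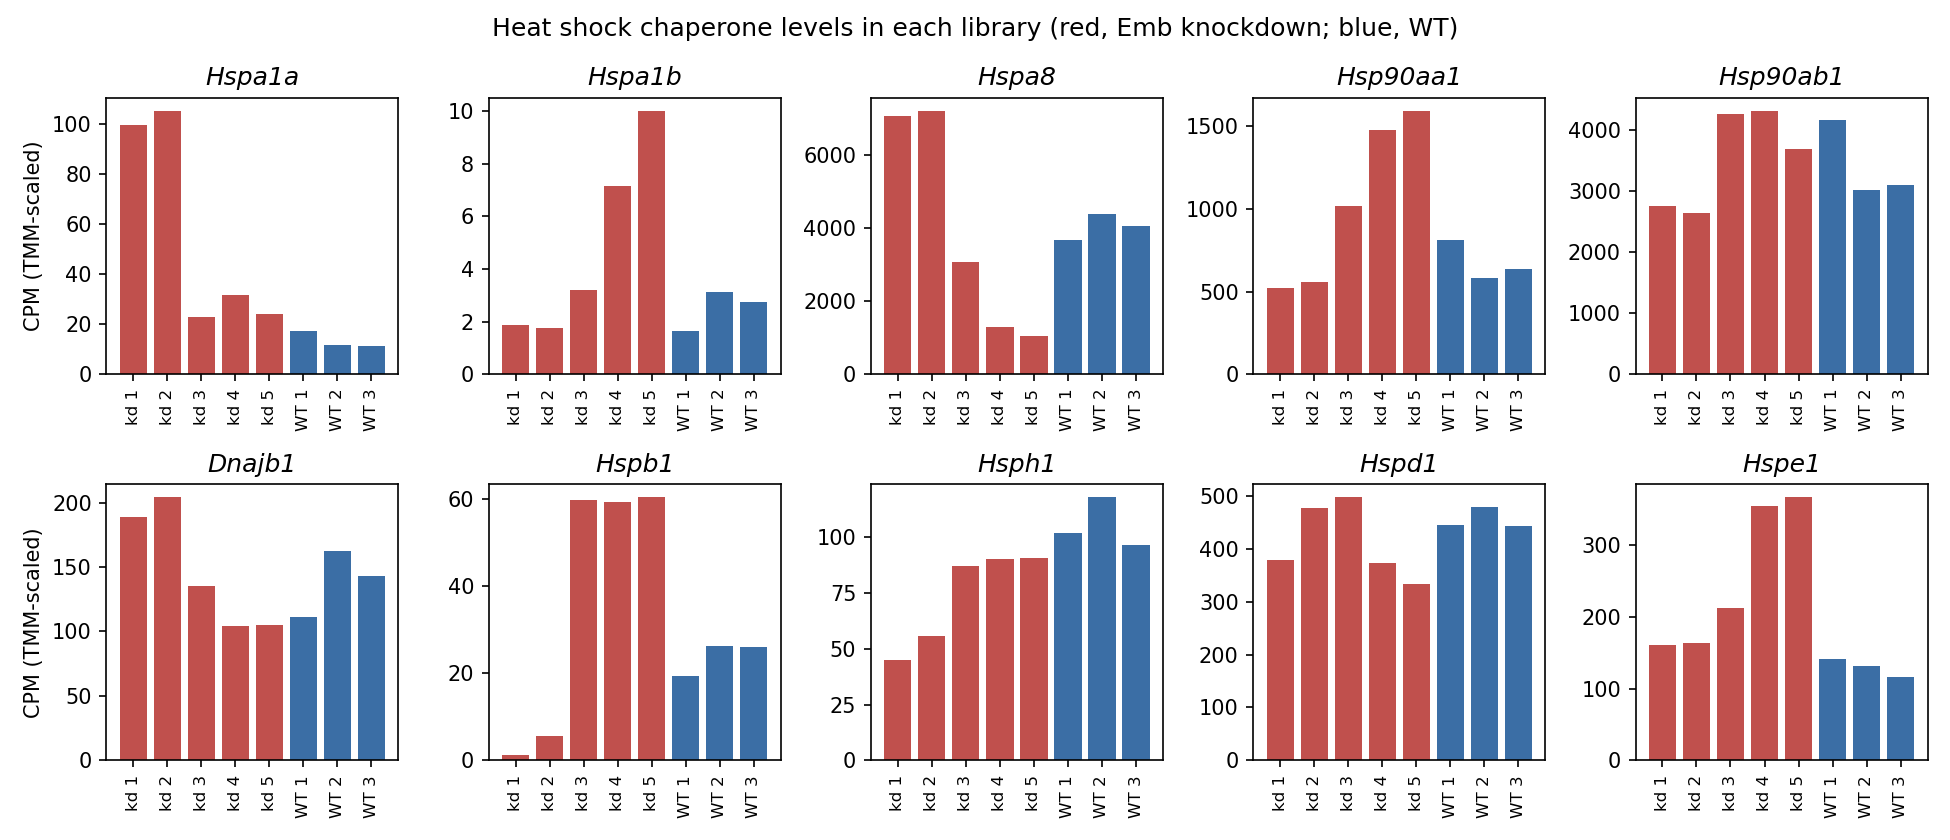
CPM (TMM-scaled, linear axis from 0) of each of the 10 chaperones in each library, with 1 bar per library, the libraries labelled Emb knockdown 1 to 5 in red on the left and WT 1 to 3 in blue on the right. Hspa1a and Hspa8 are highest in knockdown 1 and 2, where Hspb1 is lowest, and Hspe1 stands highest in knockdown 4 and 5.

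The inducible HSP70 is made from a pair of neighbouring genes, Hspa1a (gene identifier 193740, chromosome 17, 34969359 to 34972156 of GRCm38.p6) and Hspa1b (identifier 15511, chromosome 17, 34956429 to 34959238), 10120 bases apart and both on the minus strand. Their promoters are shown because they are nearly the same sequence, and their transcripts share long stretches. The 150 bases before each start, from RefSeq on GRCm38.p6, differ at 1 base. Capitals mark a pair of heat shock element units, GAANNTTC, at the same place in both.
Hspa1a, chr17:34972157-34972306, minus strand: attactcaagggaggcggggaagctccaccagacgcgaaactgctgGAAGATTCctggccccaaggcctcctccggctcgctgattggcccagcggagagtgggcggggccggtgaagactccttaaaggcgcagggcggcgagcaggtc
Hspa1b, chr17:34959239-34959388, minus strand: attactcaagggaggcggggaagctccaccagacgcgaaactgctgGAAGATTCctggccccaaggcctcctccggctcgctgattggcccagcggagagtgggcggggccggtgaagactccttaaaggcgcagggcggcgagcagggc
Of the 2704 windows of 100 bases in the longest Hspa1b transcript, 49.9% also occur in that of Hspa1a. How the authors' counting divided reads between the pair is not given in the sources used here, so the value of each gene alone is uncertain and their sum is given as well.

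Hspa1a was at 99.7, 105, 22.7, 31.6 and 23.9 CPM in knockdown 1 to 5, against 17.4, 11.8 and 11.1 CPM in WT 1 to 3. Every library labelled knockdown was above every WT library, and the highest values were in knockdown 1 and 2. With 8 libraries the means were 56.7 ± 42.0 CPM (SD, n = 5) and 13.4 ± 3.45 CPM in WT (SD, n = 3), and edgeR gave a log2 fold change of 2.08 ± 0.66 (SE), short of the threshold (adjusted p = 0.182). DESeq2 gave 2.05 with an adjusted p of 0.0158. With 6 libraries Hspa1a rose, averaging 26.1 ± 4.82 CPM in knockdown 3 to 5 and 13.4 ± 3.45 CPM in WT (SD, n = 3 each), a log2 fold change of 0.96 ± 0.26 (edgeR adjusted p = 0.0338). The call was lost without knockdown 4, knockdown 5, WT 2 or WT 3, with adjusted p of 0.132, 0.0524, 0.130 and 0.137.

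Hspa1b, the lowest of the 10 by TPM in every library, was at 1.85, 1.74, 3.18, 7.16 and 10.01 CPM in knockdown 1 to 5, against 1.65, 3.12 and 2.75 CPM in WT 1 to 3. The groups overlapped over 8 libraries, with knockdown 1 and 2 inside the WT range, and were apart over 6. The 8-library log2 fold change was 0.93 ± 0.74 (edgeR adjusted p = 0.552). With 6 libraries it was 1.43 ± 0.51 and did not pass in edgeR (adjusted p = 0.0778), while DESeq2 gave an adjusted p of 0.0292 and limma voom 0.0140. Hspa1b made up 1.83%, 1.63%, 12.3%, 18.5% and 29.5% of the counts of the pair in knockdown 1 to 5, against 8.68%, 21.0% and 19.8% in WT. The share was lowest in the libraries with the most Hspa1a. Counted as 1 gene, the pair was at 102, 107, 25.9, 38.8 and 33.9 CPM in knockdown 1 to 5 and 19.0, 14.9 and 13.9 CPM in WT. The sum rose with 6 libraries (log2 fold change 1.05 ± 0.23, edgeR adjusted p = 0.0203) and did not pass with 8 (1.95 ± 0.57, adjusted p = 0.159).

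Hspa8 (identifier 15481, chromosome 9, 40801276 to 40805202) encodes HSC70, the constitutive HSP70 that folds new chains and strips clathrin from vesicles. It was at 7087, 7217, 3076, 1279 and 1035 CPM in knockdown 1 to 5, against 3667, 4389 and 4076 CPM in WT 1 to 3. On CPM knockdown 1 and 2 were above every WT library and knockdown 3 to 5 below every one, so the groups overlapped over 8 libraries. On TPM, without TMM scaling, knockdown 1 and 2 were at 3520 and 3897, inside the WT range of 2859 to 4003. Over 8 libraries the log2 fold change was -0.04 ± 0.67 (edgeR adjusted p = 0.984). Without a composition factor in the scaling it was -0.43 (edgeR adjusted p = 0.726). With 6 libraries the means were 1797 ± 1114 CPM in knockdown 3 to 5 and 4044 ± 362 CPM in WT (SD, n = 3 each), and the log2 fold change of -1.17 ± 0.39 did not pass in edgeR (adjusted p = 0.0633). It passed in DESeq2 (adjusted p = 0.00698), in limma voom (adjusted p = 0.000359), in limma on log2(FPKM + 1) (adjusted p = 0.0333), and in edgeR without knockdown 3 (log2 fold change -1.82, adjusted p = 0.00130). With any other of the 6 libraries left out it did not pass in edgeR, with adjusted p of 0.104 to 0.221. The call for Hspa8 thus depended on the tool and on single libraries, while its direction over 6 libraries did not.

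The balance of inducible to constitutive HSP70 was described per length, as the summed TPM (transcripts per 1000000) of Hspa1a and Hspa1b over the TPM of Hspa8. It was 0.0105, 0.0108, 0.00615, 0.0219 and 0.0234 in knockdown 1 to 5, against 0.00379, 0.00247 and 0.00248 in WT 1 to 3. Every library labelled knockdown was above every WT library on this ratio. In knockdown 1 and 2 Hspa1a was high, at 36.3 and 41.6 TPM, against 7.02 to 9.91 TPM in WT. Hspa1b was below every WT library there, and Hspa8 lay inside its WT range on TPM. In knockdown 4 and 5 Hspa8 was low, at 794 and 746 TPM. Even the highest ratio left the inducible pair a small fraction of Hspa8. No test was run on the ratios.

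**Figure D2:**
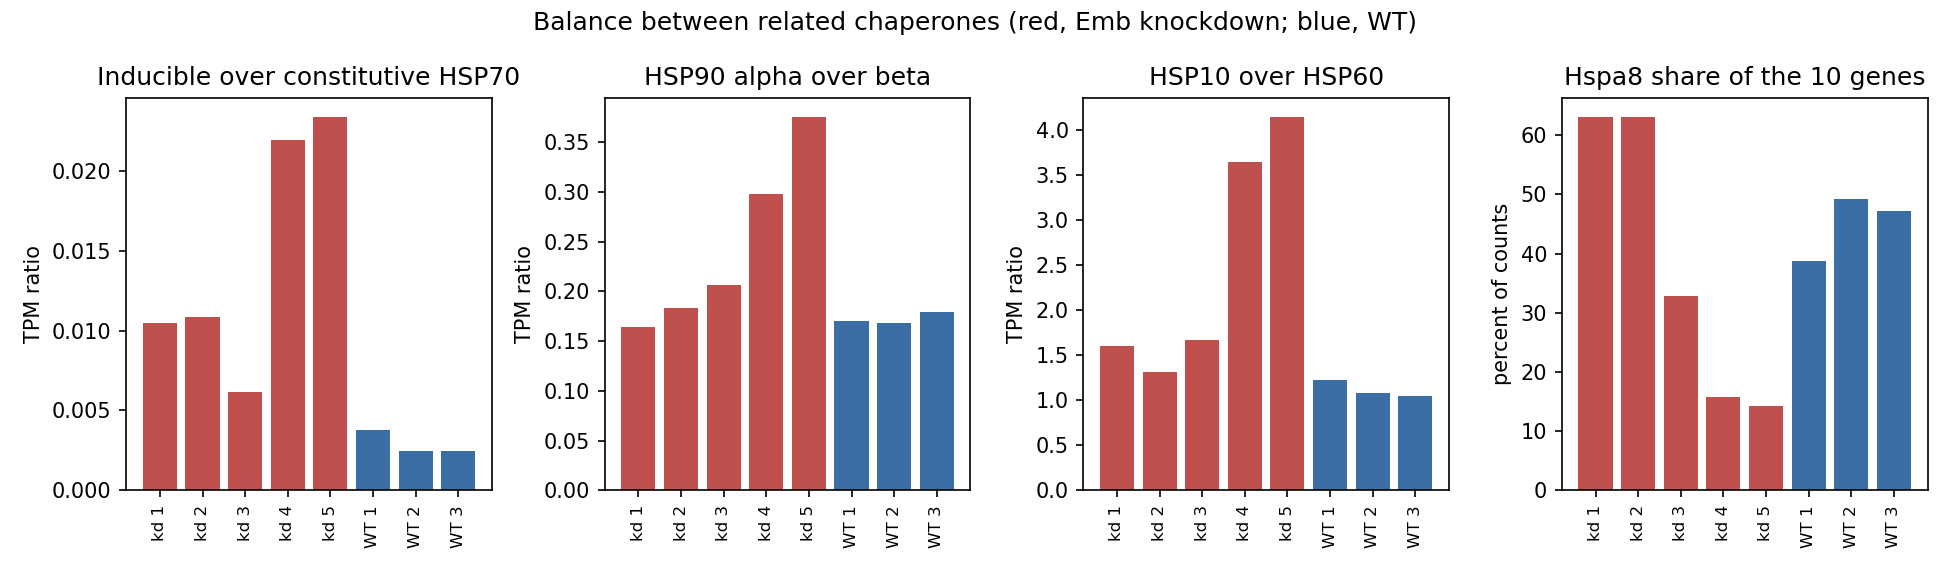
Ratios of TPM of related chaperones and, on the right, the percent of the counts of the 10 genes that Hspa8 holds, with 1 bar per library, the libraries labelled Emb knockdown 1 to 5 in red on the left of each panel and WT 1 to 3 in blue on the right. The ratio of Hspe1 to Hspd1 reaches 3.64 and 4.14 in knockdown 4 and 5 and lies between 1.04 and 1.22 in WT.

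Of the partners of HSP70, Dnajb1 and Hsph1 did not pass in either comparison. Dnajb1 (identifier 81489, chromosome 8, 83608175 to 83612653), the J-domain protein HSP40 that brings clients to HSP70, was at 189, 204, 136, 105 and 105 CPM in knockdown 1 to 5, against 112, 163 and 143 CPM in WT. The groups overlapped, with knockdown 1 and 2 highest and knockdown 4 and 5 lowest. Its log2 fold change was 0.08 ± 0.29 with 8 libraries (edgeR adjusted p = 0.909) and -0.27 ± 0.20 with 6 (adjusted p = 0.345). Hsph1 (identifier 15505, chromosome 5, 149616843 to 149636498), the HSP110 exchange factor of HSP70, was at 44.8, 55.7, 86.8, 90.2 and 90.4 CPM in knockdown 1 to 5, against 102, 118 and 96.5 CPM in WT. Hsph1 was lower in every library labelled knockdown than in every WT library. The log2 fold changes of -0.52 ± 0.28 with 8 libraries (edgeR adjusted p = 0.365) and -0.24 ± 0.16 with 6 (adjusted p = 0.299) did not pass. On CPM the groups of Hsph1, Hspa1a and Hspe1 do not overlap. For them the exact two-sided permutation test of CPM over the 56 splits of 8 libraries is thereby fixed at its smallest possible p, 0.0357. It says no more than the lack of overlap, which 10.8% of all genes showed as higher and 11.9% as lower. For the other 7 chaperones it gave 0.321 to 1.

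Of the HSP90 pair, the alpha form rose over 6 libraries and the beta form did not pass, and the difference between their changes was not tested. Hsp90aa1 (identifier 15519, chromosome 12, 110691036 to 110696395) encodes the stress-inducible HSP90 alpha, which holds kinases and steroid receptors in an activatable state. It was at 519.8, 558, 1015, 1476 and 1592 CPM in knockdown 1 to 5, against 814, 584 and 637 CPM in WT. Knockdown 1 and 2 lay below and knockdown 3 to 5 above all 3 WT libraries. The 8-library log2 fold change of 0.61 ± 0.43 did not pass in edgeR (adjusted p = 0.494). With 6 libraries Hsp90aa1 rose, to 1361 ± 305 CPM in knockdown 3 to 5, against 678 ± 121 CPM in WT (SD, n = 3 each), a log2 fold change of 1.01 ± 0.24 (edgeR adjusted p = 0.0235). Without knockdown 4, knockdown 5, WT 2 or WT 3 it no longer passed, with adjusted p of 0.0983, 0.0564, 0.102 and 0.105.

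Hsp90ab1 (identifier 15516, chromosome 17, 45567778 to 45573261) encodes the constitutive HSP90 beta. It was at 2764, 2644, 4269.5, 4313 and 3691 CPM in knockdown 1 to 5, against 4161, 3023 and 3094 CPM in WT. The groups overlapped in both comparisons, with log2 fold changes of 0.05 ± 0.25 (8 libraries, edgeR adjusted p = 0.942) and 0.26 ± 0.22 (6 libraries, adjusted p = 0.415). The ratio of Hsp90aa1 to Hsp90ab1 on the TPM scale was 0.164, 0.184, 0.207, 0.298 and 0.376 in knockdown 1 to 5, against 0.170, 0.168 and 0.179 in WT. The alpha form thus stood above its WT ratios in knockdown 2 to 5 and below them in knockdown 1, while beta stayed the more abundant form in every library.

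Hspb1 (identifier 15507, chromosome 5, 135887919 to 135889563) encodes HSP27 (HSP25 in mouse), a small heat shock protein that holds unfolded proteins and binds actin. Its promoter is shown because, Hspb1 had the smallest p of the 10 chaperones over 6 libraries. The 150 bases before its start hold a pair of separate heat shock element matches, in capitals.
Hspb1, chr5:135887769-135887918, plus strand: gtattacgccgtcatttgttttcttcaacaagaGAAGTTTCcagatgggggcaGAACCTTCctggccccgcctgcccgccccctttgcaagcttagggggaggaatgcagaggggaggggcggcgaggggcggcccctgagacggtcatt
Hspb1 was at 1.29, 5.56, 59.6, 59.1 and 60.3 CPM in knockdown 1 to 5, against 19.3, 26.1 and 25.9 CPM in WT. It was lowest in knockdown 1 and 2, below every WT library, and nearly the same in knockdown 3 to 5, above every WT library. Over 8 libraries its log2 fold change of 0.64 ± 1.07 did not pass in edgeR (adjusted p = 0.798). Over 6 libraries Hspb1 rose to 59.6 ± 0.579 CPM in knockdown 3 to 5, against 23.8 ± 3.84 CPM in WT (SD, n = 3 each), with a log2 fold change of 1.33 ± 0.19 (edgeR adjusted p = 0.00645). This was the only 1 of the 4 calls that held with each of the 6 libraries left out in turn, the largest adjusted p being 0.0494. In the same libraries the 8 mesenchyme markers, given above, also stood at their lowest share in knockdown 1 and 2 and their highest in knockdown 3 to 5, and their part in the level of Hspb1 was not tested.

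The mitochondrial pair is Hspd1 (HSP60, identifier 15510, chromosome 1, 55077833 to 55088243, minus strand) and Hspe1 (HSP10, identifier 15528, chromosome 1, 55088148 to 55091317, plus strand). The genes stand head to head and their annotated spans share the 96 bases from 55088148 to 55088243, so reads there cannot be assigned by strand in libraries that do not mark it. Near their starts lies an unbroken row of heat shock element units, shown because it stands before Hspe1 and also before the start of Hspd1 used in the RefSeq promoter table. In capitals, it covers 18 bases (chr1:55088059-55088076), from -89 to -72 relative to the start of Hspe1, and lies inside an exon of an Hspd1 transcript that GENCODE M21 starts farther upstream.
Hspe1, chr1:55088053-55088082, plus strand: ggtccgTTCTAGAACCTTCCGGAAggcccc
GENCODE M21 names 5 pseudogenes of Hspd1 and 6 of Hspe1, and how reads that match them were counted is not given in the sources used here.

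Hspe1 was at 160.8, 164, 213, 355 and 366 CPM in knockdown 1 to 5, against 141, 131 and 117 CPM in WT. On CPM every library labelled knockdown was above every WT library, by the most in knockdown 4 and 5. On TPM, without TMM scaling, the groups overlapped. Knockdown 1 and 2 were at 269 and 302 TPM, below the WT range of 354 to 418 TPM, and knockdown 3 to 5 were above it. Over 8 libraries the means were 252 ± 102 CPM (SD, n = 5) and 129.7 ± 12.3 CPM in WT (SD, n = 3), and the log2 fold change of 0.96 ± 0.35 did not pass in edgeR (adjusted p = 0.209). limma voom gave 1.25 with an adjusted p of 0.00737. Over 6 libraries Hspe1 rose to 311 ± 85.6 CPM in knockdown 3 to 5, against 129.7 ± 12.3 CPM in WT (SD, n = 3 each), a log2 fold change of 1.27 ± 0.23 (edgeR adjusted p = 0.0133). The call was lost without knockdown 4, WT 2 or WT 3, with adjusted p of 0.0692, 0.0584 and 0.0693.

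Hspd1, whose protein is the barrel that the Hspe1 lid closes, was at 379, 477, 497, 372 and 333 CPM in knockdown 1 to 5, against 445, 479 and 442 CPM in WT. The groups overlapped on CPM, and the log2 fold changes of -0.15 ± 0.19 (8 libraries, edgeR adjusted p = 0.747) and -0.18 ± 0.20 (6 libraries, adjusted p = 0.526) did not pass. On TPM, which carries no TMM scaling, Hspd1 was at 167 to 300.1 in the libraries labelled knockdown and 308 to 387 in WT, without overlap. The share of all genes apart on TPM was not counted. On log2(FPKM + 1), also without TMM, Hspd1 was at -0.43 over 8 libraries and did not pass (limma adjusted p = 0.257). The median over all genes on that scale was -0.21. The TPM ratio of Hspe1 to Hspd1 was 1.61, 1.32, 1.67, 3.64 and 4.14 in knockdown 1 to 5, against 1.22, 1.08 and 1.04 in WT, so the pair was less even in the libraries labelled knockdown, most of all in 4 and 5.

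**Figure D3:**
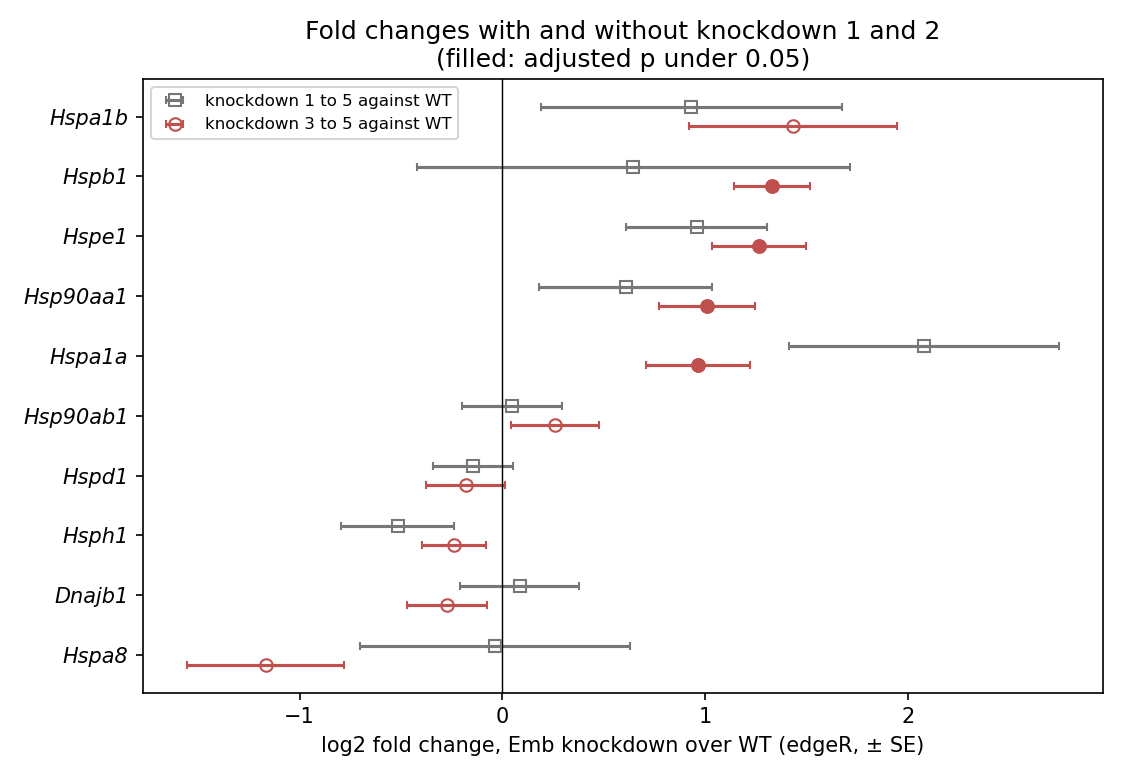
Log2 fold change (edgeR, bars ± SE) of each of the 10 chaperones, libraries labelled Emb knockdown over WT, with squares for all 8 libraries and circles for the 6 without knockdown 1 and 2; filled symbols have an adjusted p under 0.05. The 4 filled circles are Hspb1, Hspe1, Hsp90aa1 and Hspa1a, no square is filled, and Hspa8 lies at -0.04 with 8 libraries and at -1.17 with 6.

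Levels can be compared between genes per length, on TPM. In knockdown 3 to 5 Hsp90ab1 stood first at 2238 ± 131 TPM, followed by Hspa8 at 1210 ± 762, Hspe1 at 702 ± 184 and Hsp90aa1 at 649 ± 155 TPM (SD, n = 3 each), and the ranges of the last 3 overlapped from each to the next. In WT Hspa8 stood first at 3462.5 ± 574 TPM and Hsp90ab1 next at 2381 ± 255 TPM. Hsp90aa1 at 410 ± 39.7, Hspe1 at 383 ± 32.9 and Hspd1 at 345 ± 39.8 TPM followed in WT with overlapping ranges. A lower step held Hspd1 (237 ± 54.3), Hspb1 (109 ± 8.24), Dnajb1 (52.7 ± 9.05) and Hsph1 (35.5 ± 2.80 TPM) in knockdown 3 to 5, none of whose ranges overlapped. In WT it held Dnajb1 (80.6 ± 20.7), Hspb1 (56.9 ± 13.5) and Hsph1 (52.0 ± 8.60 TPM), whose ranges overlapped. Hspa1a and Hspa1b were last, at 12.6 ± 1.48 and 3.30 ± 1.78 TPM in knockdown 3 to 5 and 8.25 ± 1.49 and 1.57 ± 0.574 TPM in WT. The order in knockdown 1 and 2 differed lower down, Hspa1a at 38.9 TPM being above Hsph1 at 15.2 and Hspb1 at 4.99 TPM there. Among all 18561 genes, Hspa8 ranked from 31 to 221 by TPM in the libraries labelled knockdown and from 16 to 48 in WT.

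The 10 genes together held 0.853%, 0.908%, 1.00%, 0.832% and 0.788% of all counts in knockdown 1 to 5, against 1.03%, 1.03% and 0.968% in WT. Knockdown 3 lay inside the WT range and the other 4 below it. Hspa8 held 63.0%, 63.1%, 32.8%, 15.8% and 14.2% of the chaperone counts in knockdown 1 to 5, against 38.7%, 49.2% and 47.1% in WT. It was above the WT libraries in knockdown 1 and 2 and below them in the other 3.

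The promoters of 7 of the 10 genes were in the RefSeq table of GRCm38.p6 used here; those of Hspa8, Hsp90aa1 and Hsp90ab1 were not. Each window ran from 250 bases before to 50 bases after a start. A match to GAANNTTC or TTCNNGAA on either strand, letters that read the same on both, was found for 6 of the 7 (all but Dnajb1), beside 17.0% of all 27025 genes in the table. By window, it was in 7 of 10 of theirs and in 15.1% of all 32851. A row of 3 units, GAANNTTCNNGAA or TTCNNGAANNTTC, which contains the shorter motif, was found for Hspd1, Hspe1 and Hsph1, beside 0.662% of genes. Hspd1 and Hspe1 share the same row, and the members were chosen as heat shock genes, so these counts are a description. Promoters with the motif belonged to genes that rose over 6 libraries (Hspa1a, Hspb1, Hspe1) and to genes that did not pass (Hspa1b, Hsph1, Hspd1). TATAAA or TTTATA was in 0 of the 7 and in 15.7% of genes.

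Transcript length was set beside the fold changes, which was decided with the fold changes already known. Over 6 libraries, the 700 tested genes with a longest protein-coding transcript of up to 1000 bases had a median log2 fold change of 0.72, and 37.4% of them rose. The median was -0.06 from 1000 to 2000 bases, -0.22 from 2000 to 4000 bases and 0.24 above that. Hspe1 (774 bases) and Hspb1 (930 bases) were in the shortest class, where 23.4% and 20.7% of genes had a fold change at or above theirs. Their log2 fold changes exceeded the class median by 0.55 and 0.61. The other 8 chaperones, Hspa1a at 2967 and Hsp90aa1 at 3281 bases among them, were in the class of 2000 to 4000 bases. There 10.1% of genes were at or above Hspa1a and 9.21% at or above Hsp90aa1. A length was found for 97.0% of tested genes, and the part of length in the calls was not tested.

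**Figure D4:**
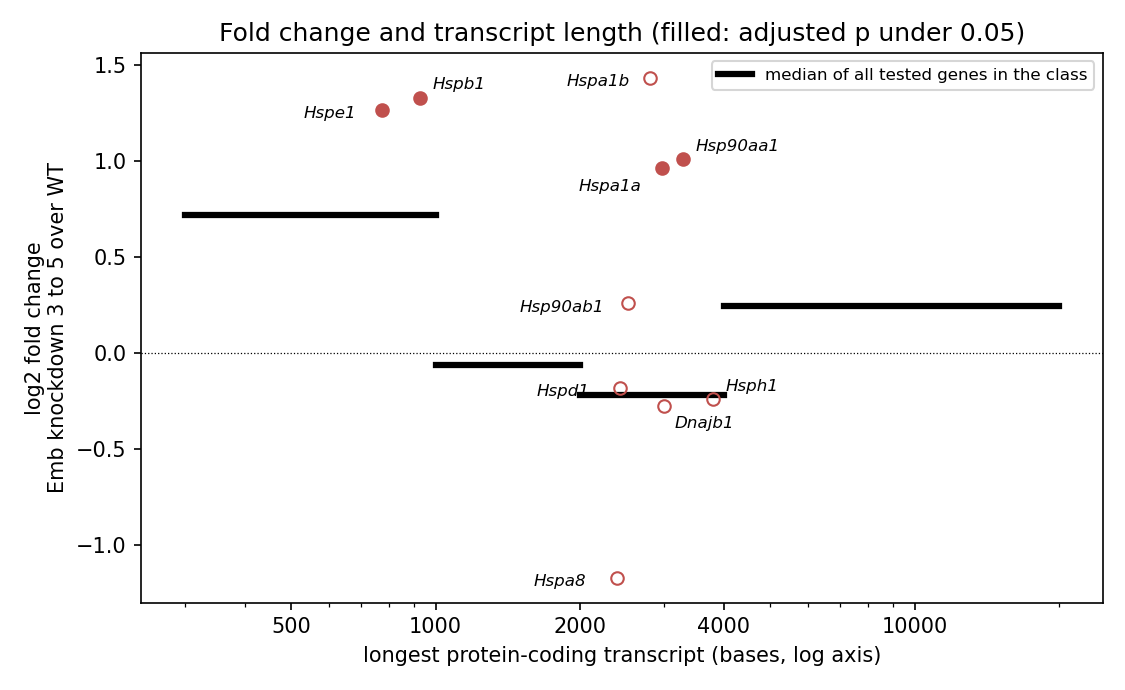
Log2 fold change over 6 libraries (Emb knockdown 3 to 5 over WT, edgeR) of the 10 chaperones against the length of the longest protein-coding transcript in bases (log axis), filled where the adjusted p is under 0.05; black bars give the median of all tested genes in 4 length classes. Hspe1 and Hspb1 lie above a class median of 0.72, and Hspa1a and Hsp90aa1 above a class median of -0.22.

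Other genes of the chaperone network fell as well as rose. Of 96 genes on 9 lists, 91 were tested with 6 libraries, of which 6 rose, 11 fell and 74 did not pass in edgeR, 18.7% called beside 20.4% of all genes. Their median log2 fold change was -0.25, beside 0.02 over all genes and 0.61 for the 10 heat shock chaperones. Without a composition factor in the scaling, 5 rose and 17 fell, beside 1445 and 1735 of all 15115 genes. Without knockdown 4, WT 2 or WT 3 none of the listed genes passed in edgeR, beside 180, 417 and 294 of all genes tested. DESeq2 called 28 with 6 libraries, 6 higher and 22 lower, 30.1% beside 28.8% of all genes. Lower calls made up 23.7%, beside 13.3% of all genes, and higher ones 6.45%, beside 15.5%. limma voom called 49, 12 higher and 37 lower, 53.8% beside 45.7%. Its lower calls made up 40.7%, beside 22.2% of all genes, and its higher ones 13.2%, beside 23.4%. With 8 libraries 0 of 92 passed in edgeR, and DESeq2 called 10, 4 higher and 6 lower, 10.6% beside 13.5% of all genes. These were 4.26% higher and 6.38% lower, beside 9.81% and 3.69% of all genes. limma voom called 33, 8 higher and 25 lower, 35.9% beside 24%. Those were 8.70% higher and 27.2% lower, beside 12.5% and 11.5% of all genes. Of the heat shock factors and regulators, 1 of 3 tested fell: Hsf1, the main heat shock transcription factor, was at 67.4, 45.6 and 34.2 CPM in knockdown 3 to 5, against 85.7, 100.05 and 93.2 CPM in WT, a log2 fold change of -0.92 ± 0.25 (edgeR adjusted p = 0.0352). In knockdown 1 and 2 Hsf1 was at 81.4 and 92.7 CPM, so over 8 libraries its values overlapped. The call for Hsf1 was lost without knockdown 4, knockdown 5, WT 1, WT 2 or WT 3, with adjusted p of 0.141, 0.0704, 0.0739, 0.122 and 0.112. Hsf4, Hsf5, Hsf2bp, Hspb3 and Cryaa had too few counts to be tested with 6 libraries.

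Among HSP90 co-chaperones, which pass clients to HSP90 or tune its cycle, 0 of 16 rose and 4 fell over 6 libraries, with a median of -0.30. The background for this list and those below was 11.1% of all genes higher and 9.37% lower. Stip1, which bridges HSP70 and HSP90, was at 222, 129 and 108 CPM in knockdown 3 to 5, against 344, 357 and 351 CPM in WT (log2 fold change -1.20 ± 0.27, edgeR adjusted p = 0.0205). The immunophilins Fkbp5 and Fkbp4 fell by 0.91 and 0.68 on the log2 scale (edgeR adjusted p = 0.0140 and 0.0406), and Unc45a, a chaperone partner of myosin, fell by 0.72 (adjusted p = 0.0286). These 4 fell over the same libraries in which Hsp90aa1 rose. With each of the 6 libraries left out in turn, Fkbp5 passed in 3 fits, Stip1 and Unc45a in 2 each and Fkbp4 in 1. In knockdown 1 and 2 Fkbp5 was at 88.4 and 75.8 CPM, above its WT values of 57.7, 67.5 and 61.9 CPM. Stip1, Fkbp4 and Unc45a were below every WT library there. Over 8 libraries Fkbp5 was at -0.24, Stip1 at -0.93, Fkbp4 at -0.81 and Unc45a at -0.78 on the log2 scale, and none passed in edgeR. Of the 7 genes listed under HSP70 exchange factors, which are Hspbp1 and Bag family genes, 1 fell over 6 libraries. It was Bag6, by 0.83 on the log2 scale (edgeR adjusted p = 0.0136), and its listing by family does not show exchange activity. In the rest of the HSP70 and HSP110 family 0 of 8 passed, Hspa4l at -0.73 (adjusted p = 0.0546) and Hspa14 at -0.49 (adjusted p = 0.108) having the smallest p.

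Among 12 J-domain co-chaperones 2 rose and 1 fell over 6 libraries. Dnajb4 was at 39.2, 55.4 and 71.4 CPM in knockdown 3 to 5, against 25.03, 19.5 and 24.7 CPM in WT (log2 fold change 1.26 ± 0.25, edgeR adjusted p = 0.0148). Dnajb14, a J-domain protein of the endoplasmic reticulum membrane, rose by 1.57 ± 0.34 (adjusted p = 0.0198), but only by 0.53 on log2(FPKM + 1), where it did not pass (limma adjusted p = 0.101). Dnajb5 fell by 1.04 (adjusted p = 0.0218). In knockdown 1 and 2 Dnajb4 was at 21.5 and 11.5 CPM, not above WT, while Dnajb14 was above and Dnajb5 below every WT library. None of the 5 tested small heat shock proteins other than Hspb1 passed, Hspb6 at -0.40 (adjusted p = 0.446) and Hspb7 at -0.35 (adjusted p = 0.516) having the smallest p.

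In the cytosolic chaperonin TRiC, which folds actin and tubulin, and its helper prefoldin, 2 of 14 rose over 6 libraries. They were the prefoldin subunits Pfdn5 (0.75, edgeR adjusted p = 0.0238) and Pfdn4 (0.69, adjusted p = 0.0449). The TRiC subunit Cct7 fell by 1.14 on the log2 scale (adjusted p = 0.0436). In knockdown 1 and 2 Pfdn4 was at 29.9 and 27.6 CPM, inside its WT range, while Pfdn5 was above and Cct7 below every WT library. Of 11 other mitochondrial chaperones and proteases 1 rose, Hscb, a J-domain protein of iron-sulphur cluster assembly (log2 fold change 1.08, adjusted p = 0.0204). The mitochondrial HSP90 Trap1 fell by 0.81 (adjusted p = 0.0339) and the disaggregase Clpb by 0.96 (adjusted p = 0.0430). With each of the 6 libraries left out in turn, Pfdn5 passed in 3 fits, Hscb in 2 and Pfdn4, Cct7, Trap1 and Clpb in 1 each. In knockdown 1 and 2 Trap1 was at 140 and 178 CPM, above its WT values of 89.6, 113 and 96.7 CPM. Hscb was above and Clpb below every WT library there. Over 8 libraries Trap1 was at -0.03 (edgeR adjusted p = 0.980). Of 15 endoplasmic reticulum chaperones Calr, the glycoprotein chaperone calreticulin, rose by 0.83 (adjusted p = 0.0236) and Hyou1 fell by 0.86 (adjusted p = 0.0129).

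**Figure D5:**
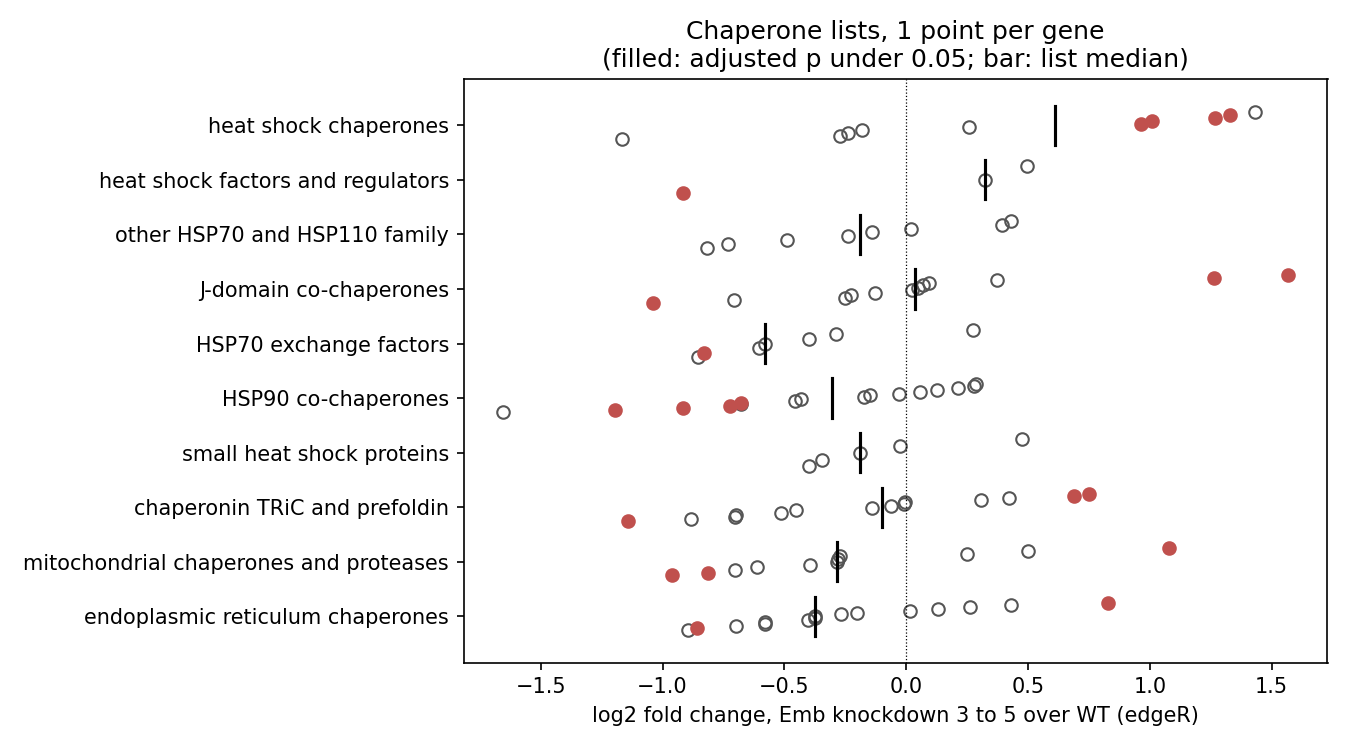
Log2 fold change over 6 libraries (Emb knockdown 3 to 5 over WT, edgeR) of every tested gene on the list of 10 heat shock chaperones and on 9 lists of related genes, 1 point per gene, filled where the adjusted p is under 0.05, with a bar at each list's median. The heat shock chaperones have 4 filled points, all right of 0, and the HSP90 co-chaperones 4, all left of 0.

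Immediate early genes, transcription factors and signalling genes that are induced within minutes of stress or tissue handling, were measured beside the chaperones. The 18 on the list took 2.01% to 2.13% of counts in knockdown 1 and 2, 0.905% to 1.11% in knockdown 3 to 5 and 0.629% to 0.984% in WT. Over 6 libraries 7 of 18 rose and 0 fell, beside 11.1% and 9.37% of all genes, with a median log2 fold change of 0.47, beside 0.02 over all genes. Ier3, an early response gene, rose by 2.00 (edgeR adjusted p = 0.00343), Fosl2 by 1.78 (adjusted p = 0.00552) and Fosb by 1.18 (adjusted p = 0.0136), the last 2 being subunits of the AP-1 transcription factor. Ier3 and Fosl2 passed with each of the 6 libraries left out in turn, Fosb with 3 of them. The part of dissociation or sorting in the chaperone levels was not tested.

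The pattern of each chaperone over the 8 libraries was compared with that of all 15411 tested genes, by the root-mean-square difference of log2 CPM centred on the mean of the libraries. Genes with nearly the same pattern were found outside the 10 in every case. With 15411 genes and only 8 libraries a close match was likely for any gene, so these matches are a description. Hspd1 and Hsp90ab1 varied little about their own means, by 0.195 and 0.272, so a gene near them may only be one that varies little. The nearest were Cst3 for Hspa1a (0.174), Cep290 for Hspa1b (0.190), Nubp1 for Hspa8 (0.0707), Lsm8 for Hsp90aa1 (0.0687) and Odc1 for Hsp90ab1 (0.0989). For Dnajb1 it was Timm44 (0.0938), for Hspb1 Rims1 (0.247), for Hsph1 Snapc3 (0.0646), for Hspd1 1110059E24Rik (0.0572) and for Hspe1 Nanog (0.104). Within the 10, the closest were Hsp90aa1 and Hspe1, at 0.274, yet Hspe1 was only the gene of rank 318 in nearness to Hsp90aa1. The nearest other chaperone lay 1.35 from Hspb1 (Hspa1b, at rank 3191) and 1.02 from Hspa1a (Dnajb1, at rank 3635).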

How the data were processed

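From the deposited table, 3 kinds of value were used. The authors deposited expected counts, which are unscaled estimates of reads per gene, per the file headers. They also deposited FPKM, per gene length and depth, and TPM, which sum to the same total in each library. HISAT, Bowtie2 and GRCm38.p6 are named in the submitters' processing notes, and no source used here names the counter or annotation. Smart-seq2 libraries carry no strand, and without molecular identifiers amplified copies count as reads.

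Counts, 17.6% to 19.8% of which were not whole in a library, were rounded, filtered with filterByExpr, scaled with TMM and put through edgeR 4.0.16 (robust quasi-likelihood fit, R 4.3.3), two-sided, with Benjamini-Hochberg adjustment over all genes and a threshold of 0.05. Scaling for the tests was computed anew for 6 libraries; printed CPM use that of 8. Alternatives used DESeq2 1.42.0, limma 3.58.1 (voom with quality weights, and log2(FPKM + 1)), other scalings and filters, and each library left out. Permutation tests (scipy 1.17.1) doubled the smaller tail. The edgeR fit alone was also run on simulated counts, where it was required only to give the largest changes the right sign. Nothing is drawn from that run about its error rate in these libraries. Transcript lengths came from GENCODE M21.

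The members and lists were chosen with earlier results of these data known. Named genes were the 10 members, Emb, up to 4 called genes with the smallest p per chaperone list (2 where none passed) and up to 3 immediate early genes.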

Additional observations from a re-analysis of the deposited data

How the results depend on the processing

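The calls depended on the tool and on single libraries. With 8 libraries edgeR called 0 genes, 0 of the 10 and 0 other chaperones. DESeq2 called 2192, 1 and 10, limma voom 3692, 4 and 33, and leaving out a library gave 0 to 2 genes and 0 of the 10. With 6 libraries edgeR called 3090 genes, 4 of the 10 and 17 other chaperones, and limma voom called 6900, 6 and 49. DESeq2 called 4538, 6 and 28. Leaving out a library gave 180 to 5982 genes of 15394 to 15533 tested, 1 to 6 of the 10 and 0 to 45 others. Without knockdown 3 these were 5982, 6 and 45, without knockdown 4 180, 1 and 0, without knockdown 5 1663, 2 and 9, without WT 1 1388, 4 and 8, without WT 2 417, 1 and 0, and without WT 3 294, 1 and 0; the cause was not tested.

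Over 6 libraries no chaperone of the 10 turned direction under the alternatives run. Over 8, several uncalled ones did. Without a composition factor, which moves the median of all genes to -0.17 from 0.07, Dnajb1 was at -0.22 and Hsp90ab1 at -0.15. On log2(FPKM + 1) Dnajb1, Hsp90ab1 and Hspb1 were at -0.20, -0.24 and -0.58, on log2(FPKM + 0.1) at -0.21, -0.24 and -0.72, and with voom Dnajb1 was at -0.27. With a library left out, Dnajb1 ranged from -0.058 to 0.22, Hspa8 from -0.37 to 0.22 and Hsp90ab1 from -0.034 to 0.21, and over 6 libraries Hspb7 ranged from -0.56 to 0.057.

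Replicate numbers are not stated to pair the libraries, and same-numbered libraries deviated with correlations of -0.03, 0.04 and -0.04. A replicate block was fitted over 8 libraries, but knockdown libraries with no WT library of the same number add nothing to its group difference. That difference thus compares knockdown 1 to 3 with WT 1 to 3, and knockdown 1 and 2 are the libraries that stood apart. The block fit called 0 genes, with Hspa8 at 0.43, Hspa1b at -0.15, Hsp90ab1 at -0.11, Hspb1 at -1.75 and Hsp90aa1 at -0.014. These values are therefore not a result for all 8 libraries. No paired analysis was possible with 6 libraries because their groups share only 1 number. Depth limits the precision of Hspa1b, with 36 to 217 counts a library, and of Hspb1 in knockdown 1, with 25.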
